A study of Mus musculus with 12 samples.

Results

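Toll-like receptors are the innate sensors through which immune and stromal cells detect microbial products. The genes described here were 8 receptors, Tlr1, Tlr2, Tlr3, Tlr4, Tlr6, Tlr7, Tlr8 and Tlr9, with the adaptor Myd88 and the chaperone Unc93b1, 10 of the 19938 genes with a probe set of a single symbol. They were chosen by name as a family. Where a gene has several such probe sets the brightest over all 12 arrays stands for it, but each of the 10 had only 1. They were measured in day 7 thymic epithelium/stroma of FCG pups, a mouse model of 4 core genotypes, on a C57BL/6J background. The Y chromosome of this model lacks Sry, and an autosome carries multiple copies of Sry as a transgene, which lets the gonads and the sex chromosomes vary independently. The groups were 3 arrays from XXF (XX gonadal females without Sry), 3 from XYF (XY gonadal females with the Sry-deleted Y chromosome and no transgene), 4 from XXM (XX gonadal males with the transgene) and 2 from XYM (XY gonadal males with both). No group had been treated. The comparisons asked whether transcripts differed with complement (XY against XX) or with gonadal sex (male against female). All XY arrays carried the same Sry-deleted Y chromosome, so the number of X chromosomes, Y-linked genes and any other feature of that chromosome cannot be told apart in the XY against XX comparison. For an X-linked gene, transcripts of the X chromosome and of any copy of that gene carried on this Y chromosome cannot be told apart by these probe sets either, so a ratio given here is one of total signal.

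Toll-like receptors at the cell surface (TLR1, TLR2, TLR4 and TLR6) recognise microbial lipids and lipoproteins, with TLR1 and TLR6 acting as partners of TLR2. Those of the endosome (TLR3, TLR7, TLR8 and TLR9) recognise nucleic acids, and UNC93B1 carries them there from the endoplasmic reticulum. MYD88 relays the signal of all of these but TLR3 to NF-kappaB and interferon regulatory factors. In the thymus they are known from dendritic cells, macrophages, B cells and epithelial cells, and MYD88-dependent signals in medullary epithelium are known to act on chemokines that draw dendritic cells. Tlr7 and Tlr8 lie side by side on the X chromosome, and Tlr7 is known to be transcribed from both X chromosomes in some human immune cells.

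The labels held on all arrays: Xist was between 8505 and 9884 on the XX arrays and at most 79.9 on the XY arrays, and Sry was at least 2524 on the male and at most 565 on the female arrays. The values were linear probe set intensities. The table has no detection call, so the 95th percentile of 1035 probe sets of olfactory receptor genes, which few tissues besides the nose transcribe, was taken as a reference level (a signal of 309.5). The Sry probe set read 416 to 565, above this level, on the female arrays, which lack Sry. A signal above the reference therefore does not prove a transcript. The markers of cortical thymic epithelium (6 of 6) and of medullary thymic epithelium (7 of 8) lay above the reference. So did all 12 measured markers of thymocytes, although thymocytes had been washed out of the tissue. Among cells that use these receptors, 9 of 10 macrophage, 4 of 8 dendritic cell, 4 of 5 plasmacytoid dendritic cell and 3 of 7 B cell markers were above the reference, and none of 6 neutrophil markers. In such bulk RNA, fewer cells of a type and less RNA per cell cannot be told apart. Whether each array came from a different pup is not stated in the labels, and the p-values rest on the spread between arrays, which may be technical.

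Promoter windows are shown to describe the genes of the Tlr8 and Tlr7 neighbourhood that lay higher on XY arrays, and no relation between their letters and the differences was tested. The windows of 300 bases from RefSeq (GRCm38.p6, 250 bases before to 50 after the transcript start) are printed for Tlr8, at chrX:167264280-167264579, and for the 3 neighbours that passed the test below, Tmsb4x (chrX:167209169-167209468), Msl3 (chrX:168673823-168674122, the first of its 2 windows) and Hccs (chrX:169320323-169320622), all read on the minus strand. Capitals mark matches on either strand to GGGCGG (the GC box), TATAAA (the TATA box) or GAGGAAG (an ETS core). The table held windows for 7 of the 10 genes, without Tlr4, Tlr7 and Unc93b1.
Tlr8: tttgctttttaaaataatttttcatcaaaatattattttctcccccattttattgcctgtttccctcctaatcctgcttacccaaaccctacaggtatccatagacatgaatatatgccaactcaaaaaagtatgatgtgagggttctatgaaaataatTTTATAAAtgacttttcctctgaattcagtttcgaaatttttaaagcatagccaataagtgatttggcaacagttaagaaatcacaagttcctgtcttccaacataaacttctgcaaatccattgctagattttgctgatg
Tmsb4x: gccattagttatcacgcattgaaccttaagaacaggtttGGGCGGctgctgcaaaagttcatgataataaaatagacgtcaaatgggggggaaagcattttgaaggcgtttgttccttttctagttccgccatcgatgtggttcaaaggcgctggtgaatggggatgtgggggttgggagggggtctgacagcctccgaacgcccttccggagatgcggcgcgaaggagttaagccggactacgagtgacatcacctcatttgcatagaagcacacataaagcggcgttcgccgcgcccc
Msl3: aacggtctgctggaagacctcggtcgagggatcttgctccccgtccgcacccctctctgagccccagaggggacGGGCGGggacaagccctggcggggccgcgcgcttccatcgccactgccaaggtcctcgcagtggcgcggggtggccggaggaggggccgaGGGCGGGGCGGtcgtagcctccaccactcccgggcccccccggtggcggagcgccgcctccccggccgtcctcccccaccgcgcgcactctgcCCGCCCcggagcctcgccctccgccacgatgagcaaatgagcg
Hccs: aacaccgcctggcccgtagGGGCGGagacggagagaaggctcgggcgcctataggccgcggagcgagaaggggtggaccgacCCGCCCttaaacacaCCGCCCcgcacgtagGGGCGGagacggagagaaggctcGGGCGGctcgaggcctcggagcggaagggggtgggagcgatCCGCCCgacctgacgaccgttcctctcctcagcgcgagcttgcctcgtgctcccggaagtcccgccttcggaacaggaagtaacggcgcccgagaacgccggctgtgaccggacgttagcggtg
The printed windows differed in kind. The Tlr8 window held TATAAA on both strands, overlapping in a single stretch, and no GGGCGG. The GC box was found 1 time in the window of Tmsb4x, 4 times in the printed window of Msl3 and 6 times in that of Hccs. The other Msl3 window, which is not printed, held no GGGCGG. Over all 32851 promoter windows, 35.7% held GGGCGG and 13.6% held TATAAA. The ETS core, in 13.6% of all windows as well, was in none of the 4 and was found 2 times in the window of Tlr9. A match is a description of letters and not a site in use.

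Tlr7, the endosomal receptor for single-stranded RNA, was higher in XY than in XX thymus. Its signal was 246, 221 and 224 on the XXF arrays and 249.5, 200.1, 184 and 204 on the XXM arrays. It was 419, 331 and 375 on the XYF arrays and 441 and 327 on the XYM arrays. The lowest XY array thus lay above the highest XX array, in both gonadal sexes. The mean was 218 ± 24.1 (SD, n = 7) in XX and 379 ± 50.9 (SD, n = 5) in XY, a log2 difference of 0.78 (SE 0.10, 95% interval 0.56 to 1.01) or a ratio of 1.72 (limma, adjusted p = 0.0257 by Benjamini-Hochberg over all probe sets). The exact two-sided permutation test over arrays gave an unadjusted p = 0.00126, the smallest that the 792 groupings allow. It restates that the XX and XY arrays do not overlap. Among the 10 genes it was the only call (1 of 10), where 0.0366% of the 35556 probe sets were called in this comparison and 0.0225% with XY higher. The family was chosen with earlier results of these data known, so this share is only a description. The call depended on single arrays: it was kept without XXM array 2, XYF array 8 or XYM array 9 and lost in the other 9 of the 12 fits that left out 1 array, with adjusted p up to 0.151 (without XYM array 1), while the log2 difference stayed between 0.68 and 0.89. It was also lost when arrays 9 to 12 were left out together (log2 0.88, adjusted p = 0.481), after renewed quantile normalization (0.77, adjusted p = 0.107) and in the two-factor model of the methods without moderation (0.78, adjusted p = 0.144).

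**Figure D1:**
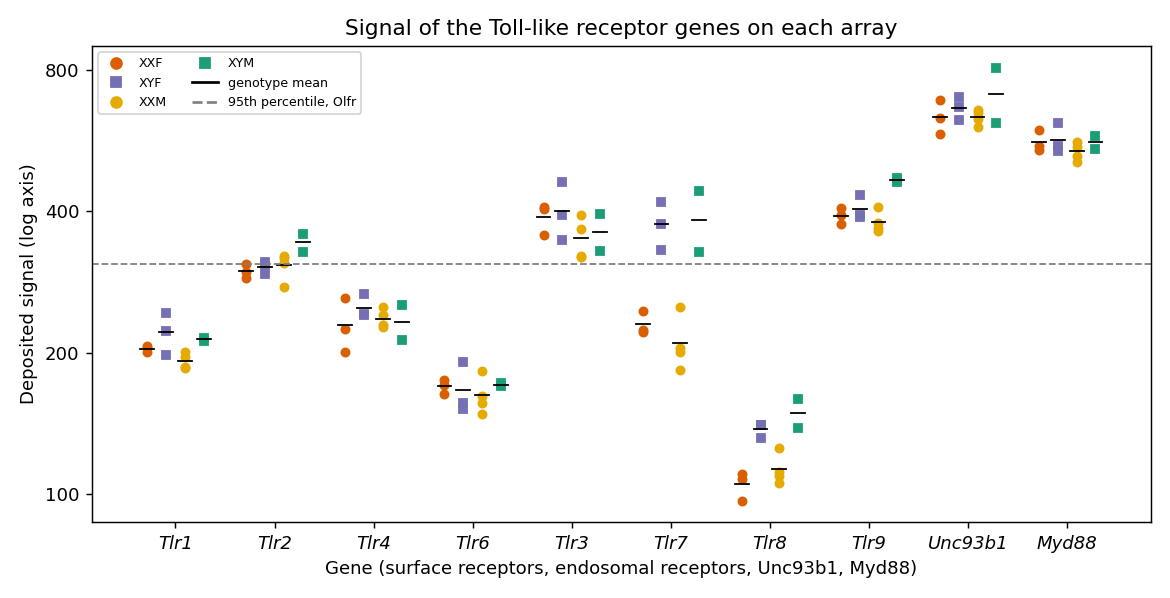
Signal (deposited intensity, log axis) of the 10 genes on each of the 12 arrays, with points for single arrays, colours for genotypes, black bars for genotype means and a dashed line at the reference level (309.5). The 5 XY arrays of Tlr7, between 327 and 441, lie above the line and the 7 XX arrays, between 184 and 249.5, below it.

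The difference in Tlr7 was seen in both gonadal sexes. XYF minus XXF was 0.70 on the log2 scale (SE 0.14) and XYM minus XXM was 0.87 (SE 0.15), and neither passed the adjustment alone (limma, adjusted p = 1.00 and 0.320, where 0.0169% and 0.0197% of all probe sets were called). Their difference, the interaction, was 0.17 (SE 0.20, adjusted p = 1.00). The labels number the arrays 1 to 12. Within arrays 1 to 4, 5 to 8 and 9 to 12 the XY minus XX difference of Tlr7 was 0.80, 0.72 and 0.71, where arrays 5 to 8 held only 1 XY array. With these sets as a block in limma it was 0.73 (adjusted p = 0.00266). Against the olfactory receptor probe sets, the mean of the XX arrays lay above 88.4% and that of the XY arrays above 97.8% of them, so that all 5 XY arrays and none of the 7 XX arrays passed the reference. Averaged over all arrays, its signal of 285 was just below the reference and that of Tlr2, at 310.0, just above. Part of a signal this close to the reference may be background, which would make a ratio smaller than that of the transcripts. This was not tested. On XY arrays the Tlr7 mean of 379 also lay below the Sry signal of the female arrays (416 to 565).

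Tlr8, the neighbouring endosomal receptor, had a signal that also did not overlap between XX and XY. It was 110.4, 108 and 96.7 on the XXF arrays and 111, 105, 109 and 125 on the XXM arrays. On the XYF arrays it was 140.2, 139.9 and 132, and on the XYM arrays 159 and 138. Every XY array was above every XX array, though all 12 were below the reference level. The mean was 109 ± 8.54 (SD, n = 7) in XX and 142 ± 10.4 (SD, n = 5) in XY. The log2 difference of 0.40 (SE 0.07, 95% interval 0.25 to 0.55) did not pass the adjustment over all probe sets (limma, adjusted p = 0.220). The exact permutation test again gave an unadjusted p of 0.00126, which restates the lack of overlap. The difference was 0.39 between the female and 0.40 between the male genotypes, and 0.43, 0.38 and 0.29 within the sets of arrays 1 to 4, 5 to 8 and 9 to 12. Tlr7 and Tlr8 were the only 2 of the 10 genes without overlap of XX and XY arrays, against 0.166% of all probe sets, or 0.112% with XY higher.

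The genes around Tlr7 and Tlr8 on the X chromosome were taken in RefSeq order (GRCm38.p6), 20 before and 7 after the pair. This list, too, was chosen with earlier results of these data known. Of these 27, 3 were called with XY higher, against 0.0225% of all probe sets. They were Tmsb4x directly before the pair and Msl3 and Hccs after it. Tmsb4x, which encodes the actin-binding thymosin beta 4, had a signal of 3362 ± 343 (SD, n = 7) in XX and 5222 ± 611 (SD, n = 5) in XY (log2 0.64, SE 0.09, limma adjusted p = 0.0312). Msl3, a subunit of the MSL histone acetyltransferase complex, had 1091 ± 89.2 in XX and 1779.9 ± 102 in XY (log2 0.70, SE 0.07, adjusted p = 0.00431). Hccs, which attaches haem to cytochrome c, had 862 ± 72.9 in XX and 1369 ± 142 in XY (log2 0.68, SE 0.09, adjusted p = 0.0247). In all 3 the lowest XY array was above the highest XX array, as in 0.112% of all probe sets. Of the 12 fits that left out 1 array, Msl3 was called in 11 (not without XYM array 1, which left no call among the 27), Hccs in 3 (without XXM array 2, XXF array 7 or XYF array 12) and Tmsb4x in 1 (without XYF array 8). The log2 differences stayed between 0.59 and 0.73 in these fits.

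The other genes after Tlr7 were not called. Prps2, an enzyme that makes phosphoribosyl pyrophosphate, came next after Tlr7 with a log2 difference of 0.57 (limma, adjusted p = 0.0783), and its XX arrays (1610.2 to 2209) and XY arrays (2627 to 3277) did not overlap. It was called in 8 of 23 alternatives, with adjusted p from 0.0110 to 0.825 over all of them. Arhgap6 had 0.59 (adjusted p = 0.220), and its XX (195 to 248) and XY arrays (283 to 399) did not overlap either. Mid1, a ubiquitin ligase of the microtubules and the last gene in the order, had 0.34 (adjusted p = 1.00) with overlapping arrays. Frmpd4 and Amelx, whose mean signals of 109 and 206 lay below the reference, had 0.01 and 0.05.

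Before Tmsb4x the picture was different. The 19 genes from Car5b to Egfl6 had log2 differences between -0.13 and 0.16 with a median of -0.05, and none was called or had an unadjusted p under 0.05 (2.55% of all probe sets had). The nearest of them were Egfl6 at -0.08, Tceanc at -0.03 and Rab9 at -0.06. Among the 19, Gemin8 and Trappc2 have 2 probe sets each. The identifier of the set that stands for Gemin8 lies outside the range of the other neighbours, and whether it reads this locus was not tested. The 8 genes from Tmsb4x on had a median of 0.58. This split at Tmsb4x was drawn after the values were seen and was given no test. Among the 710 other X-linked genes none was called with XY higher and 2 were called lower, Xist and Kdm6a, and none of 19104 autosomal genes was called in either direction. The X genes known to escape silencing, Kdm6a, Kdm5c, Eif2s3x and Ddx3x, all lay lower in XY, with log2 differences from -0.73 to -0.17.

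**Figure D2:**
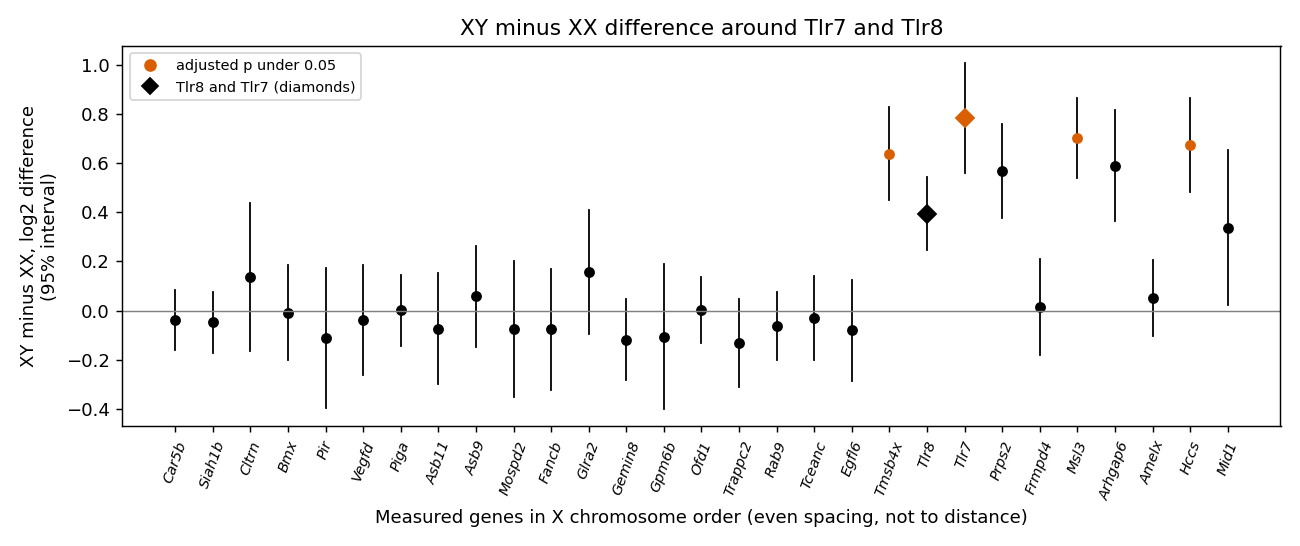
Log2 difference XY minus XX (vertical axis, points with 95% intervals) of Tlr8, Tlr7 (diamonds) and the 27 measured neighbours in chromosome order (horizontal axis, evenly spaced), with calls in orange. The 19 genes to the left of Tmsb4x lie between -0.13 and 0.16, whereas Tmsb4x, Tlr8, Tlr7, Prps2, Msl3, Arhgap6 and Hccs lie between 0.40 and 0.78.

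The other endosomal receptors are autosomal. Tlr9, the receptor for unmethylated CpG DNA, was above the reference on all 12 arrays. Its signal was 406, 375 and 393 in XXF, 378, 363, 369 and 408 in XXM, 392, 388 and 433 in XYF, and 471 and 463 in XYM. The 2 XYM arrays were thus the highest of the 12, while XYF overlapped with both XX genotypes. The log2 difference XY minus XX was 0.17 (SE 0.06, limma unadjusted p = 0.0112, adjusted p = 1.00), made up of 0.05 between the female and 0.30 between the male genotypes. The interaction was 0.25 (SE 0.12, limma unadjusted p = 0.0486, adjusted p = 1.00), where 1.54% of all probe sets had an unadjusted p under 0.05 and none was called.

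Tlr3, the receptor for double-stranded RNA, which signals through TICAM1 and not MYD88, was also above the reference on every array. Its signal was 404, 409 and 356 in XXF, 367, 393, 322 and 319 in XXM, 462, 393 and 348 in XYF, and 395 and 329 in XYM. The groups overlapped throughout, and the XY minus XX difference was 0.04 (95% interval -0.16 to 0.24). Its male minus female difference of -0.15 (95% interval -0.35 to 0.05, adjusted p = 0.985) was the largest in size among the 10 genes in that comparison.

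Unc93b1, the chaperone of the endosomal receptors, was above the reference on all 12 arrays. Its signal was 690.1, 585 and 631 in XXF, 657, 648, 605 and 629.8 in XXM, 666, 627 and 702 in XYF, and 809.8 and 616 in XYM. XYM array 1 stood apart at 809.8 and its partner was among the lowest, so the XYM mean rests on a wide spread. The XY minus XX difference was 0.11 (95% interval -0.06 to 0.28, limma adjusted p = 1.00), and it was 0.01 without XYM array 1 and 0.21 without XYM array 9. On XYM array 1 Tlr7, Tlr8 and Tlr9 also had their highest signals of the 12 arrays. So did 6 of 10 macrophage, 3 of 8 dendritic cell, 3 of 7 B cell and 3 of 8 medullary epithelium markers. Without this array the XY minus XX differences of Tlr7, Tlr8 and Tlr9 were 0.68, 0.34 and 0.17.

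Myd88, the adaptor, ran from 509.8 to 618. It was 597, 539 and 552 in XXF, 562, 526, 549 and 509.8 in XXM, 618, 537 and 549.8 in XYF, and 579.6 and 543 in XYM. All arrays were above the reference, and the genotypes overlapped. The XY minus XX difference was 0.04 (95% interval -0.09 to 0.17), and male minus female was -0.04 (95% interval -0.18 to 0.09).

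The surface receptors did not pass the test in either comparison. Tlr2, the partner of TLR1 and TLR6, lay around the reference, with 288, 309 and 298 in XXF, 276, 310.3, 322 and 318 in XXM, 311, 307 and 294 in XYF, and 328 and 359 in XYM. The 2 XYM arrays were again the highest, and 6 of the 12 arrays were above the reference. The XY minus XX difference of Tlr2 was 0.10 (95% interval -0.04 to 0.23).

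Tlr1 and Tlr6, which lie near each other on chromosome 5, and Tlr4, the lipopolysaccharide receptor, were below the reference on every array. Tlr1 ran from 185 to 206 (median 200.2) over the 7 XX arrays and was 243, 198, 222, 215 and 211 on the 5 XY arrays, of which 4 were above all XX arrays. Its XY minus XX difference of 0.13 (95% interval -0.0037 to 0.27) did not pass the test (limma, adjusted p = 1.00). Tlr4 ran from 200.4 to 261 (median 228) in XX and was 266, 239.9, 241, 252 and 212 in XY, with a difference of 0.05 (95% interval -0.12 to 0.23). Tlr6 ran from 148 to 182 (median 163) in XX and was 191, 152, 156, 172 and 169.5 in XY, with a difference of 0.02 (95% interval -0.15 to 0.19). The highest signals of Tlr1, Tlr4, Tlr6, Tlr3 and Myd88 were all on XYF array 4, as were those of all 6 endothelium markers.

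Gonadal sex made no call in the family. Of the 10 genes, 0 were called in male minus female and 0 had an unadjusted p under 0.05 (limma), against 0.00281% and 3.03% of all probe sets, and the two-factor model of the methods likewise called 0. The log2 differences lay between -0.15 and 0.11, with 4 above 0 and 6 below (51.3% of all probe sets were above 0). The Tlr7 signal was 303 ± 84.4 (SD) on the 6 female and 268 ± 99.5 (SD) on the 6 male arrays, with a log2 difference of -0.06 (95% interval -0.28 to 0.16) after the genotypes were weighted equally. Tlr8 and Tlr2 lay furthest above 0, at 0.11 each (95% intervals -0.04 to 0.26 and -0.03 to 0.24). In XY minus XX all 10 differences were above 0, against 52.6% of all probe sets, with a median of 0.10, against 0.01 over all probe sets. Markers of cortical epithelium (6 of 6, median 0.10), medullary epithelium (8 of 8, median 0.09) and endothelium (6 of 6, median 0.11) were all above 0 as well. Those of thymocytes were all below (12 of 12, median -0.11), and of 6 fibroblast markers only 1 was above 0 (median -0.14). The part of these shifts in the members' values was not tested.

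**Figure D3:**
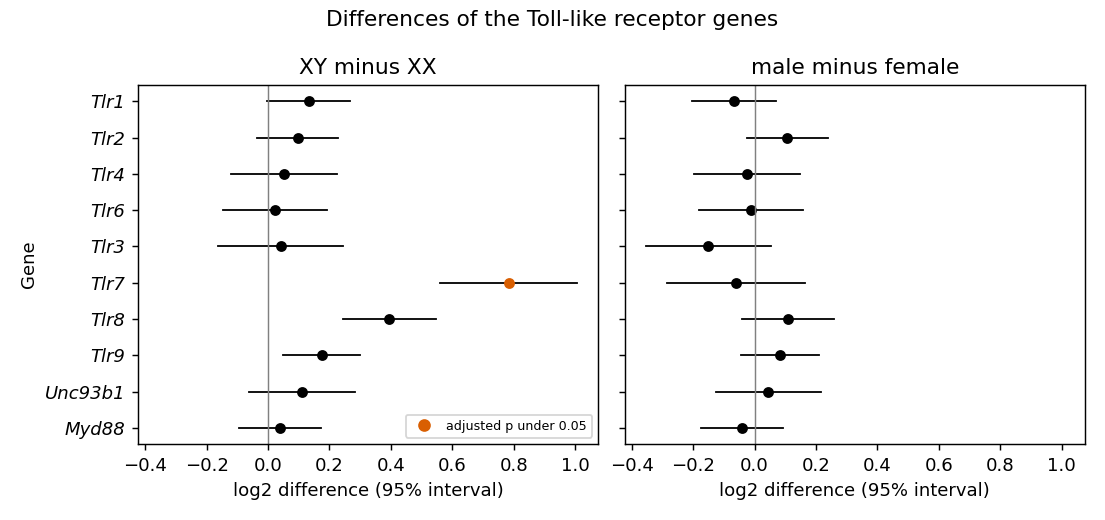
Log2 differences of the 10 genes (points) with 95% intervals (lines) for XY minus XX (left) and male minus female (right), with the call in orange. Tlr7 at 0.78 and Tlr8 at 0.40 stand apart on the left, and on the right every interval includes 0.

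The wider pathway held 64 further measured genes, of 70 listed. In limma 0 of them were called for XY minus XX or male minus female, and 5 and 1 had an unadjusted p under 0.05 (2.55% and 3.03% of all probe sets), while the two-factor model of the methods called 0 in both. In XY minus XX 47 of the 64 lay above 0, with a median of 0.04. Of the other receptors, Tlr12 had a signal of 492 and Tlr13, which is X-linked, 158, with differences of 0.05 and 0.00. Among co-receptors and chaperones, 7 of 9 were above the reference, with Hsp90b1, the endoplasmic reticulum chaperone of these receptors, brightest at 2960 and a difference of 0.05. Cd36 (0.08) and Slc15a4 (0.02), an endolysosomal transporter, followed in brightness, and Cd180 had 0.11. Ly96, the partner of TLR4, and Lbp, the lipopolysaccharide-binding protein, had the lowest unadjusted p for sex among them, 0.0615 and 0.0591, with male minus female differences of -0.29 and 0.14.

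Of the proteases that cleave the endosomal receptors, Ctsl, the cathepsin of cortical epithelium, had 6813 and a difference of 0.02 in XY minus XX. Ctss was 0.17 (unadjusted p = 0.0812), Ctsb 0.02 and Lgmn -0.06. The value of Ctsk, 0.27 (unadjusted p = 0.305), rested on XYF array 12, where its signal was 856, against 244 to 291 on the other 11 arrays, all of them below the reference. Without that array it was -0.01. Among adaptors and kinases, where 12 of 15 were above the reference, differences ran from -0.09 to 0.10, the largest in size at Irak2 (0.10) and Tab3 (-0.09). The brightest were Tab2 (2648), Map3k7 (1515) and Ikbkb (1296), with -0.06, -0.06 and 0.00. Irak1, the X-linked kinase downstream of MYD88, had 0.06. Inhibitors of the pathway ran from -0.02 to 0.10. Nfkbia, the brightest at 1695, had 0.09, Tnfaip3 -0.02, Tollip 0.00 to 2 decimals, and Irak3 0.10.

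Transcription factors and target genes held the lowest unadjusted p-values of the pathway. Irf7, the interferon regulatory factor downstream of TLR7 and TLR9, had a difference of 0.21 (SE 0.08, unadjusted p = 0.0175), and its arrays overlapped, from 450.1 to 598 in XX and from 530.4 to 699 in XY. Nfkb2 had 0.18 (unadjusted p = 0.0241), Relb 0.19 and Fos 0.17 (unadjusted p = 0.0428), and Irf8 0.17 (unadjusted p = 0.0694). In male minus female, Fos alone of the pathway had an unadjusted p under 0.05, at 0.0176 in limma, with a log2 difference of 0.21. The Fos signal was below the reference on every array, with 237 and 214 on the XYM arrays and 149 to 194 on the others. Irf3 and Rela, both bright, had -0.01 and 0.01. Of 15 target cytokine genes 5 were above the reference. The chemokine Cxcl10 was brightest at 1767 with 0.27 (unadjusted p = 0.130), Ccl5 had 582 with 0.17 (unadjusted p = 0.0198), Cxcl1 had 0.04 and Il12a 0.09. Each of these had an adjusted p of 1.00 for XY minus XX.

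**Figure D4:**
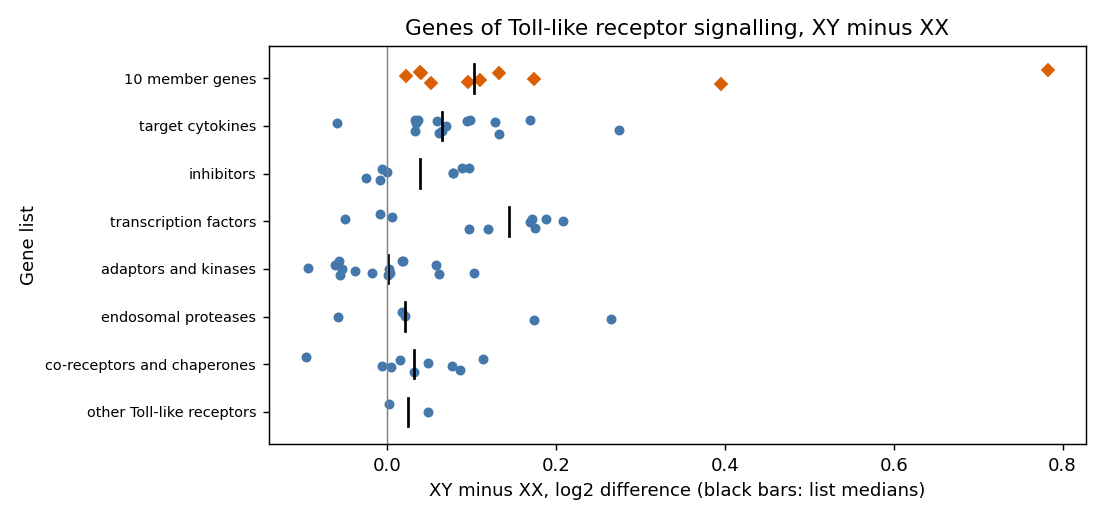
Log2 difference XY minus XX (horizontal axis) of each measured gene of 7 lists of the pathway (blue points) and of the 10 genes (orange diamonds), with black bars at the list medians. All 64 pathway genes lie between -0.10 and 0.27, and the diamonds at 0.40 and 0.78 are Tlr8 and Tlr7.

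Markers of the cells that use these receptors are given beside the Tlr7 result. Summed over 10 markers, the macrophage signal ran from 4991 to 6247 on XX and from 4834 to 6567 on XY arrays. The dendritic cell sum (8 markers) ran from 3501 to 3832 in XX and from 3573 to 4200.4 in XY, with all 8 differences above 0, a median of 0.10, and Flt3, a growth factor receptor of dendritic cells, at 0.22 (limma, adjusted p = 1.00). The difference of Flt3 was the largest of the 8, and its mean signal of 264 lay below the reference. The plasmacytoid dendritic cell sum (5 markers, with Ccr9, which thymocytes also express, by far the brightest) ran from 7277 to 8777 in XX and from 6795 to 8316 in XY. Siglech, a defining marker of that cell type, was below the reference. The B cell sum (7 markers) ran from 2105 to 2292 in XX and from 1957 to 2320 in XY, and the thymocyte sum (12 markers) from 40611 to 44666 in XX and from 38835 to 40007 in XY. The cortical epithelium sum (6 markers) ran from 20857 to 25609 in XX and from 23248 to 25408 in XY, and the medullary epithelium sum (8 markers) from 5591 to 6599 in XX and from 5852 to 7006 in XY. Of these sums, only those of thymocytes did not overlap, being lower in XY, and the part of cell composition in the Tlr7 difference was not tested.

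Over the 12 arrays, the genes above the reference whose log2 signal was most like that of Tlr7 were Tmsb4x (Pearson r = 0.947), Msl3 (0.931) and the Y-linked Uty (0.921), out of 11272 genes compared. For Tlr8 they were Uty (0.899), Hccs (0.888) and the Y-linked Eif2s3y (0.886). All of these separate XX from XY arrays, which sets these values. Within the 7 XX arrays alone, r with Tlr7 was 0.829 for Tmsb4x, 0.368 for Msl3 and 0.036 for Uty, and r with Tlr8 was 0.371 for Uty, 0.113 for Hccs and 0.313 for Eif2s3y. The arrays share their normalization, so these are descriptions of 12 points.

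The autosomal members had other companions. Myd88 was most like Nfkbia (0.949), Itga6 (0.948) and Use1 (0.946). Tlr3 was most like Ccl11 (0.966), Eogt (0.931) and Txndc17 (0.916), and Tlr4 like Ctbp2 (0.958), Mpped2 (0.951) and Amotl1 (0.943). Tlr2 was closest to Scg5 (0.905), Xcr1 (0.895), a chemokine receptor of dendritic cells, and Emc9 (0.871), and Tlr1 to Mall (0.926), Plvap (0.897), an endothelial protein, and Zbp1 (0.872), a nucleic acid sensor. Unc93b1 had Mrpl2 (0.940), Spib (0.902) and Kcnk6 (0.896), and Tlr9 had Klf4 (0.923), Ndufb2 (0.908) and Cldn7 (0.883). The values of Tlr6 were lower, with Klf11 (0.806), Tmem230 (0.805) and S1pr1 (0.803).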

How the data were processed

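The authors hybridised RNA of day 7 thymic epithelium/stroma to an Affymetrix mouse whole-transcript array. The deposited values are linear intensity summaries, with 1 column per array. Affymetrix Expression Console 1.1 and PLIER appear in the submitters' processing notes, whereas RMA and quantile normalization appear in the methods, and the settings of the deposited table are not given in the sources used here. The values were used as deposited (array medians 327.5 to 345.5), and 130 probe sets held a value below 1. The number of arrays limits the precision.

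Symbols came from the array annotation, updated by gene identifier through RefSeq (GRCm38.p6). A single symbol was found for 21789 probe sets, several for 1621 and none for 12146, and only the first kind was named. The build of the array annotation is not given in the sources used here. With limma 3.58.1 (R 4.3.3), log2 values of all 35556 probe sets were put in a model of the 4 genotypes that shared 1 estimate of the spread. Contrasts were XY minus XX, male minus female, their interaction and the 4 pairwise differences, with Benjamini-Hochberg adjustment over all probe sets and a threshold of 0.05. Unadjusted p-values are named as such. Permutation tests were exact and two-sided, on the mean log2 difference over arrays. The fits were tested on simulated data. Figures used matplotlib 3.10.9.

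The members, lists and tests were chosen with earlier results of these data known. Named were all members, X neighbours called or among the 4 nearest on either side, up to 3 brightest and 3 lowest-p genes of each pathway list, and the 3 genes most like each member. Relb, Amelx, Mid1, Gemin8, Trappc2, Flt3, Ccr9 and Siglech were named outside this rule, after their values were seen. Tlr5, Tlr11, Irak4, Traf3, Chuk and Nfkb1 and 7 listed markers were not analysed here. Alternatives were an offset of 16, quantile normalization once more, a minimum mean signal of 100, single-symbol probe sets, an additive model, the two-factor model of the methods (a two-way ANOVA with neither moderation nor interaction), trend and robust moderation, array weights, sets of 4 arrays as a block, the mean of probe sets, other reference levels and leaving out each array. Whether the ANOVA of the methods held an interaction is not stated there, and leaving it out was a choice made here. Leaving out arrays 9 to 12, the set with the 2 highest first principal component scores, was added after seeing the data.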

Additional observations from a re-analysis of the deposited data

Results flagged for a closer look

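Among the 50 groups of 4 or more arrays examined over the 10 genes, 1 held an array far from the others. Chance gives about 1 in 20, and groups of the same gene share arrays. The flagged group was Unc93b1 in gonadal males, with 809.844 on XYM array 1 against 605 to 657 on the other 5 male arrays.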

How the results depend on the processing

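In XY minus XX all alternatives kept Tlr7, Tlr8, Tlr9, Tlr1, Tlr2, Myd88 and Unc93b1 above 0 (Tlr7 from 0.68 to 0.89, Tlr8 from 0.34 to 0.46). The number of the 10 genes called was 0, not 1, after renewed quantile normalization, with the two-factor model of the methods and with arrays 9 to 12 left out, and 0 to 1 over the fits that left out 1 array. For the X neighbours the count of 3 became 1 with that model, 0 with arrays 9 to 12 left out and 0 to 2 over the fits that left out 1 array. It became 4, with Prps2 added, after renewed quantile normalization, with the offset, the signal minimum, single-symbol probe sets, trend and robust moderation, the block and the mean of probe sets. The causes were not tested, though fewer arrays leave fewer residual degrees of freedom. No alternative called a member for sex or for the interaction, or a pathway gene. The number of members above the reference was 2 against the 99th percentile of the olfactory receptors, 8 against the 95th percentile of the vomeronasal receptors, and 4 to 5 over the fits that left out 1 array, as Tlr2 sits at the limit.

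Of 851 single-gene values under the alternatives, 22 changed sign, none of them in a comparison where the gene was called. With renewed quantile normalization Frmpd4 was -0.00500. With arrays 9 to 12 left out Frmpd4 was -0.099, Amelx -0.0013, Ctsk -0.029 and the sex difference of Tlr7 0.044. Over the fits that left out 1 array, XY minus XX ran from -0.0099 to 0.115 for Tlr4, from -0.030 to 0.054 for Tlr6, from -0.026 to 0.107 for Tlr3, from -0.166 to 0.0057 for Egfl6, from -0.067 to 0.096 for Frmpd4, from -0.012 to 0.430 for Ctsk and from -0.00018 to 0.100 for Amelx. Male minus female ran from -0.087 to 0.038 for Tlr4, from -0.043 to 0.041 for Tlr6, from -0.168 to 0.048 for Tlr7 and from -0.054 to 0.144 for Unc93b1. No paired analysis was possible because the labels number the arrays 1 to 12 and no number recurs between genotypes. Sets of consecutive numbers were fitted as a block instead, which kept the Tlr7 call (0.73, adjusted p = 0.00266). Tlr1, Tlr4, Tlr6 and Tlr8 lie below the reference level, where part of a signal may be background. Its effect on their log2 differences was not tested.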
